A study of Mus musculus with 23 samples.

Results

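The genes of the mouse Fc gamma receptors and of the proteins they work with were followed across sorted brain macrophages 1 day after stroke. The members were 7 of the 33280 genes in the count table, chosen by symbol: Fcgr1, Fcgr3 and Fcgr4, which encode activating receptors, Fcgr2b, which encodes the inhibitory receptor, Fcer1g, Syk and Fcgrt. All 7 had a row, and all 7 passed the filter on low counts in every comparison.

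Fc gamma receptors bind the constant part of IgG antibodies and couple antibody-coated targets to phagocytosis, cytokine release and antigen presentation. The activating receptors signal through the FcRγ chain, the product of Fcer1g, whose immunoreceptor tyrosine-based activation motif (ITAM) recruits the kinase encoded by Syk. The Fcgr2b receptor carries an inhibitory motif and recruits a lipid phosphatase that dampens this route. The product of Fcgrt, FcRn, is a receptor of another kind: it pairs with β2-microglobulin inside the cell and returns IgG and albumin from endosomes to the outside. Microglia and the macrophages at the borders of the brain both carry Fc receptors.

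Every animal was of the genotype Ccr2creERT2/+ R26tdT/tdT and received 3 tamoxifen doses of 2 mg/day, on the last gavage day and 2 and 4 days later, so that cells with an active Ccr2 promoter at that time became tdTomato-positive (tdT+). Mice were given BLZ945, a small-molecule inhibitor of the CSF-1 receptor that removes macrophages which then repopulate, at 200 mg/kg for 7 days, or vehicle (CTL). Thrombin was placed in the middle cerebral artery 8 weeks after the last gavage and brains were taken 1 day after the stroke. Microglia (MG, sorted as CD45int CD11b+ CD206-) and subdural CNS-associated macrophages (sdCAMs, sorted as CD45+ CD11b+ CD206+ cells) came from coronal slices without choroid plexus. Libraries fell into 5 groups: MG CTL, MG BLZ945, tdT- CTL and tdT- BLZ945 with 5 libraries each, and tdT+ BLZ945 with 3. The reporter depends on Ccr2 and on the tamoxifen window, so tdT- sdCAMs of treated mice hold any cell that was not labelled then, whatever its source. Groups without stroke or tamoxifen were not analysed here, and the labels used here gave no ages. CTL libraries held 1 animal each, whereas 4 of the 5 BLZ945 MG and tdT- libraries and 2 of the 3 tdT+ libraries pooled 2 animals by their labels (the study's methods give 2 pooled mice for each BLZ945 replicate), and the library names of BLZ945 F2 and M1 shared 1 animal number. Replicates are named F1, F2, F3, M1 and M2 as labelled, and the same name within a treatment marks libraries from the same animal or pool.

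Total counts ran from 9433960 to 13276081 per library, so 3 counts, the floor used here for a gene at 0, came to between 0.226 and 0.318 CPM (counts per 1000000 counts). All levels below are CPM further scaled by edgeR's TMM factors. The members together took 0.616% to 1.47% of all counts in a library. As a check of the sorted cell types, 7 microglia markers, including P2ry12 and Tmem119, had a summed level of 18855 to 28665 CPM in MG CTL and 1373 to 2428 CPM in tdT- CTL, and 7 sdCAM markers, including Mrc1 and Cd163, one of 22.6 to 49.6 and 14976 to 16859.6 CPM. The BLZ945 groups divided in the same way. Among other cell types, neural markers summed to 38.8 to 78.3 CPM in MG CTL and 116 to 231 CPM in tdT- CTL, and the 8 monocyte markers stayed at or below 50.1 CPM except in tdT- BLZ945, where they reached 241 CPM in replicate F1. Ly6g, a neutrophil gene, was at 0 in all libraries of at least 1 group, while the neutrophil sum of 152 to 224 CPM in MG CTL was nearly all Csf3r. In tdT- BLZ945 the neutrophil sum reached 126 CPM in the same replicate F1, where Retnlg, a neutrophil gene, was at 74.2 CPM. Retnlg was at most 17.7 CPM in tdT+ BLZ945. NK and T cell markers stayed at or below 11.5 CPM and mast cell markers at or below 7.61 CPM, both highest in tdT- BLZ945 F1. Endothelial markers lay between 4.77 and 46.9 CPM. The B and plasma cell markers summed to between 174 and 516 CPM over all libraries, most of it Ighm (174 to 466 CPM), with Igkc at 0 in every library. Dendritic cell markers summed to 1210.5 to 1920.4 CPM in MG CTL, nearly all Siglech, and 422 to 949 CPM in tdT- CTL, where Cd209a had the highest median and Xcr1 was at 0. By the study's methods the sort left out cells positive for Ly6C, Ly6G or CD11c, a gate against inflammatory monocytes, neutrophils and dendritic cells. Antibodies that block Fc receptors were part of the staining before the sort. In these bulk libraries fewer cells of a type and less RNA per cell cannot be told apart.

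The 7 genes lie at 4 places in the genome. In the GENCODE M21 annotation of GRCm38, Fcgr2b (chromosome 1, 170958617 to 170976547 on the minus strand), Fcgr4 (chromosome 1, 171018920 to 171029761 on the plus strand), Fcgr3 (chromosome 1, 171051174 to 171064935 on the minus strand) and Fcer1g (chromosome 1, 171229572 to 171234365 on the minus strand) lay close together on 1 chromosome, whereas Fcgr1 lay on chromosome 3, 96282909 to 96293969 on the minus strand, Fcgrt on chromosome 7, 45092990 to 45103851 on the minus strand and Syk on chromosome 13, 52583173 to 52648792 on the plus strand. The build behind the count table was not stated without doubt, so these are the coordinates of the annotation and not of the table.

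Fcgr2b and Fcgr3 encode receptors of opposite sign with nearly the same ligand-binding part, and their transcripts share sequence. The longest shared stretch ran 129 bases, over positions 402 to 530 of transcript Fcgr2b-201 and 313 to 441 of Fcgr3-201, all coding. It is shown because a short read from it fits both genes:
Fcgr2b and Fcgr3: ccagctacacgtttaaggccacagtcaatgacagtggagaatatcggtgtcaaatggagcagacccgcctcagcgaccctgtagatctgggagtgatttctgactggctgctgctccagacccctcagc
Of the 50-base words of each transcript, 4.7% of Fcgr2b-201 and 12.8% of Fcgr3-201 occurred in the other gene. How reads with several matches were counted was not stated, so the split between Fcgr2b and Fcgr3 carries that uncertainty. For Fcgr2b, 12.5% of the words occurred in some other gene and 155 exonic bases (2.7%) overlapped the antisense gene Gm38204. The other 5 members shared no 50-base word with any other gene.

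The promoters of the 4 members that differed between sdCAMs and MG are shown as RefSeq gives them for GRCm38.p6 in windows of 300 bases that begin upstream of the start site and end shortly after it. Capitals mark letters of a PU.1-type ETS motif (GAGGAA) or an interferon regulatory factor core (AANNGAAA), searched on both strands. PU.1 is the lineage factor of macrophages and its sites are known in Fc receptor promoters.
Fcgrt (chr7:45103773-45104072, minus strand): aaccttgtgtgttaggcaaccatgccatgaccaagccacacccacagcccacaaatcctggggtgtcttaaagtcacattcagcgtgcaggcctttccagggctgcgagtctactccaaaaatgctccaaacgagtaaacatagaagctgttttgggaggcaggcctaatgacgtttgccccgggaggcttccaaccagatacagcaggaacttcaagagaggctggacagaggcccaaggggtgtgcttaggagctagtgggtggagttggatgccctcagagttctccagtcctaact
Fcgr2b (chr1:170976022-170976321, minus strand): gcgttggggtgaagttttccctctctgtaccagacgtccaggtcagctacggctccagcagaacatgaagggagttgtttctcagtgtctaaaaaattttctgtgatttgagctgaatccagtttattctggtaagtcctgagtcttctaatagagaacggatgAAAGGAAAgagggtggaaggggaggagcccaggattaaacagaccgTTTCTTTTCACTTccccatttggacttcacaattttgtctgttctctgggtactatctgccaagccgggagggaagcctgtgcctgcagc
Fcer1g (chr1:171234300-171234599, minus strand): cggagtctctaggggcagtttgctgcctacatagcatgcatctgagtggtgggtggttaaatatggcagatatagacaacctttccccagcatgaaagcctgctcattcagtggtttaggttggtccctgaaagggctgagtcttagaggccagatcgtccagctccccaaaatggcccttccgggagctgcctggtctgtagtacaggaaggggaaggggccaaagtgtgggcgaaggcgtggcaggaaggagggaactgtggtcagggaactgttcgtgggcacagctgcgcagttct
Fcgr4 (chr1:171018676-171018975, plus strand): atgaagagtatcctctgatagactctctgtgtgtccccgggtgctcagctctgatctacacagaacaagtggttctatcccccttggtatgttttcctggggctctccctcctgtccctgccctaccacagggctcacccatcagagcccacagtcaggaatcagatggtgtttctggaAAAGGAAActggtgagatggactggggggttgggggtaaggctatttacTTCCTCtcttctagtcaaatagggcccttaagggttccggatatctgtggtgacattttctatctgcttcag
Of the 4, only the Fcgr4 window held the GAGGAA letters, 22 bases before the start site, and it also held the AANNGAAA core at 71 bases before it. The Fcgr2b window held 3 matches of AANNGAAA and no GAGGAA, and 2 of the 3 overlapped. No match to either motif was found in the Fcgrt and Fcer1g windows. Among the other members, GAGGAA occurred in the windows of Fcgr1, of Fcgr3 and in 1 of 2 of Syk, and Fcgr1 also held an interferon-gamma type match (TTCCCAGAA, motif TTCNNNGAA) 109 bases before its start. Across all 32851 promoters, GAGGAA occurred in 28.3%, AANNGAAA in 23.9% and TTCNNNGAA in 8.3%, so a match on its own is common. No member window held the E-box letters CACGTG (in 7.2% of all promoters), an AP-1 type match (TGANTCA, in 7.8%), the GC box letters GGGCGG (in 35.7%) or the TATA box letters TATAAA (in 13.6%).

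In sdCAMs, Fcgrt, Fcgr2b and Fcer1g were higher than in microglia and Fcgr4 was lower, in vehicle-treated mice, in the tdT- cells of BLZ945-treated mice and in their tdT+ cells. Fcgr1, Fcgr3 and Syk did not pass the test in any of the 3 comparisons. A fit that also paired libraries of the same animal or pool (the replicate block) called Syk lower in tdT- BLZ945. Calls rest on edgeR's quasi-likelihood test with Benjamini-Hochberg adjustment over all genes tested, at an adjusted p under 0.05, and folds are between normalized counts. In each comparison 3 of the 7 members were called higher and 1 lower. The background was 15.3% of 12697 genes higher and 10.3% lower for tdT- CTL against MG CTL, 18.3% and 14.1% for tdT- BLZ945 against MG BLZ945, and 14.6% and 10.6% of 13790 genes for tdT+ BLZ945 against MG BLZ945. Likewise, for 4 of the 7 members the libraries of the 2 groups did not overlap, against 26.8%, 22.0% and 33.1% of all genes tested in these comparisons. The median log2 fold change of the 7 members was 0.19, 0.10 and 0.10, near the medians of all genes (-0.01, -0.02 and -0.01). The tdT- BLZ945 and tdT+ BLZ945 comparisons use the same MG BLZ945 libraries. Summed neural markers, at most 78.3 CPM in MG, were at 104 to 186 CPM in tdT- BLZ945 and 148 to 389 CPM in tdT+ BLZ945, and their part in the differences was not tested. Without tdT- BLZ945 F1, the library with raised monocyte markers and raised Retnlg, edgeR called the same 4 members against MG BLZ945. The log2 fold changes were then 4.10 for Fcgrt, 1.79 for Fcgr2b, 1.11 for Fcer1g and -0.998 for Fcgr4. No member was called in the other comparisons of tdT- BLZ945 without this library.

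**Figure D1:**
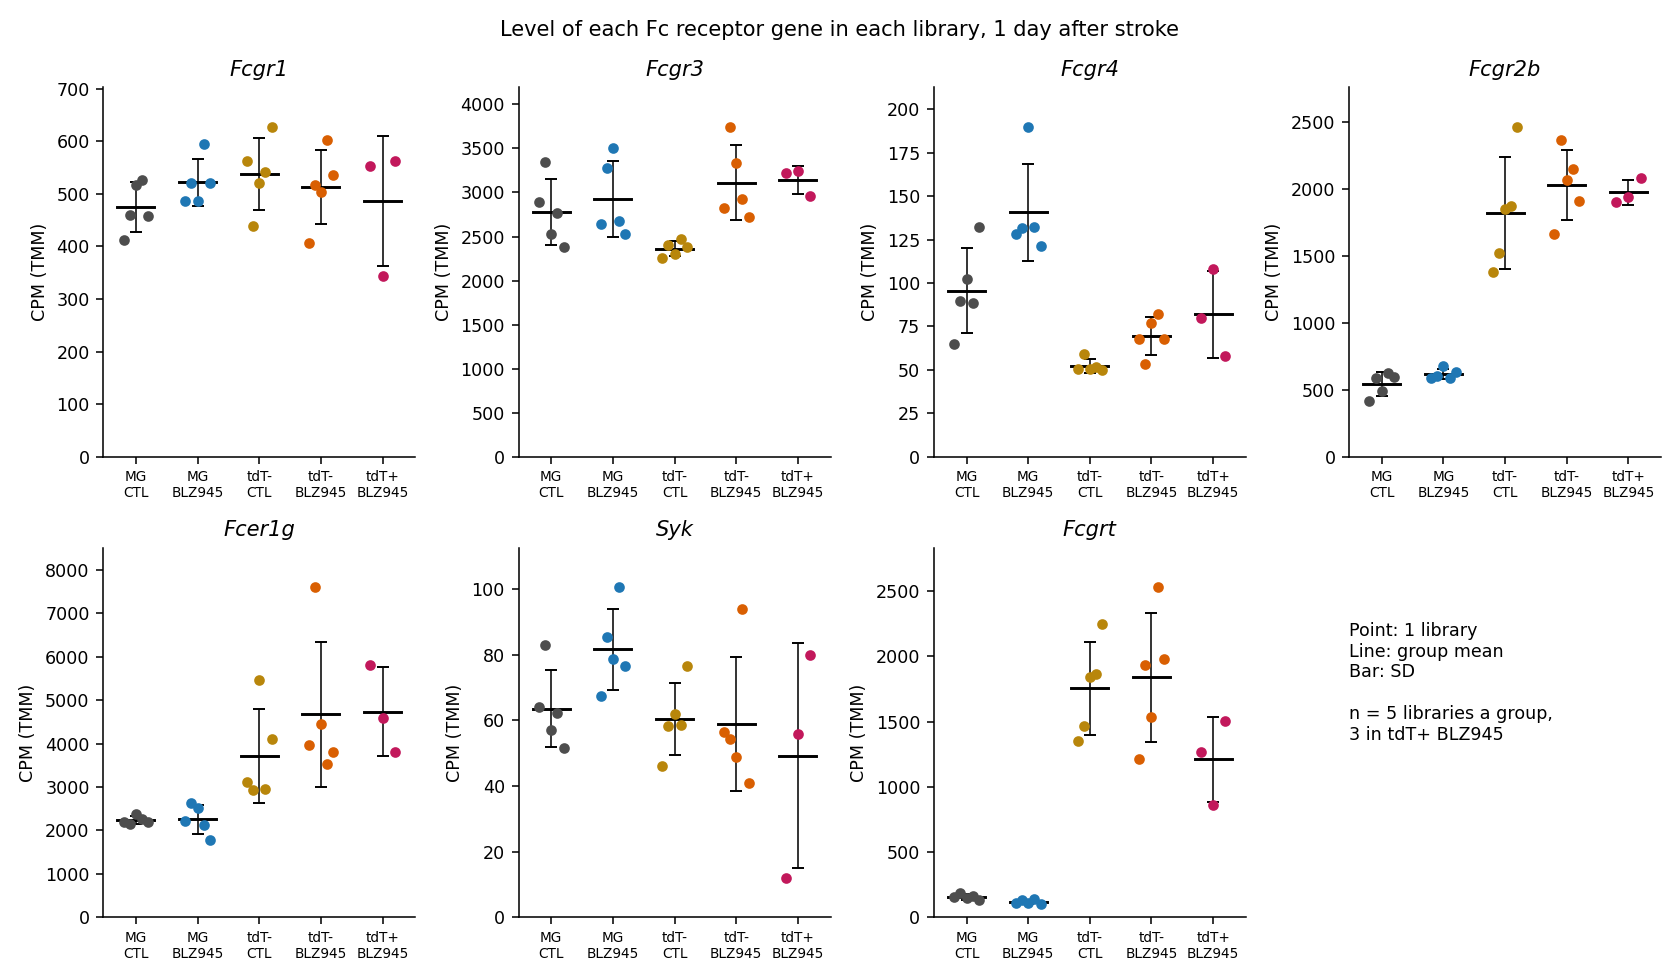
Level of each of the 7 genes in CPM (TMM-normalized, linear axis from 0) in every library, by group; points are libraries, lines group means and bars SD. Fcgrt stays between 101 and 184 CPM in the 10 MG libraries and between 863 and 2528 CPM in the 13 sdCAM libraries.

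Fcgrt, the FcRn heavy chain, showed the largest difference of the 7. In microglia its level was 155, 184, 144, 166 and 131 CPM in MG CTL replicates F1, F2, F3, M1 and M2, and 107, 130.4, 110.2, 137 and 101 CPM in MG BLZ945 in the same order. In tdT- sdCAMs it was 1348, 1466, 1839, 1867 and 2248 CPM in CTL and 1215, 1937, 1538, 2528 and 1976 CPM in BLZ945, and in tdT+ sdCAMs F2, F3 and M2 it was 1264, 863 and 1501 CPM. Every sdCAM library lay above every MG library, by a wide gap. Fcgrt was 11.3-fold higher in tdT- CTL than in MG CTL (log2 fold change 3.50, SE 0.19, adjusted p = 4.76e-12), 15.8-fold higher in tdT- BLZ945 than in MG BLZ945 (log2 fold change 3.98, SE 0.19, adjusted p = 7.77e-13) and 10.3-fold higher in tdT+ BLZ945 than in MG BLZ945 (log2 fold change 3.37, SE 0.21, adjusted p = 8.8e-12). The sdCAM library was thus higher in all 13 pairs of sdCAM and MG libraries from the same animal or pool, by 2.96 to 4.28 on the log2 scale. Its partner B2m was called higher in tdT- sdCAMs of both treatments, but by much less (6908 ± 1696 against 4452 ± 489.5 CPM, adjusted p = 0.0197 in CTL, and 7871 ± 3228 against 5440.1 ± 619 CPM, adjusted p = 0.0396 in BLZ945). B2m was not called in tdT+ cells. The ratio of B2m to Fcgrt counts was 23.6 to 35.8 in MG CTL and 39.9 to 52.3 in MG BLZ945, whose ranges did not overlap. In sdCAMs it was 2.80 to 5.38 in tdT- CTL, 2.33 to 6.99 in tdT- BLZ945 and 4.06 to 9.34 in tdT+ BLZ945. The ratio has no test of its own.

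Fcgr2b, the inhibitory receptor gene, was also higher in sdCAMs. It stood at 416, 591, 493, 628 and 593 CPM in MG CTL F1, F2, F3, M1 and M2 and at 588, 601, 676, 589 and 631 CPM in MG BLZ945. The tdT- libraries were at 1384, 1522, 1853, 1874 and 2467 CPM in CTL and 1662, 2367, 2072, 2151 and 1909 CPM in BLZ945, and the 3 tdT+ libraries at 1904, 1944 and 2084 CPM. The lowest sdCAM library was above the highest MG library. The difference was 3.36-fold in CTL (log2 fold change 1.75, SE 0.15, adjusted p = 6.34e-09), 3.32-fold for tdT- BLZ945 (log2 fold change 1.73, SE 0.15, adjusted p = 7.37e-09) and 3.20-fold for tdT+ BLZ945 (log2 fold change 1.68, SE 0.16, adjusted p = 1.39e-08). The 3 estimates lay within 1.68 and 1.75 on the log2 scale, each with an SE of about 0.15, so they were not separated by their errors. Fcgr3, with which Fcgr2b shares sequence, had log2 fold changes of -0.23, 0.10 and 0.10 in the same comparisons and was not called.

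Fcer1g, the signalling chain of the activating receptors, was at 2187, 2149, 2382, 2258 and 2201 CPM in MG CTL and 2220.5, 2630.0, 2526, 2121 and 1787 CPM in MG BLZ945, in the order F1, F2, F3, M1 and M2. In sdCAMs it was at 3111, 2942, 5458, 2966 and 4109.9 CPM in tdT- CTL, 3965, 7599, 4461, 3531 and 3812 CPM in tdT- BLZ945 and 5822, 4592 and 3799 CPM in tdT+ BLZ945 F2, F3 and M2. The coefficient of variation was 4.07% in MG CTL, 14.9% in MG BLZ945, 21.5% in tdT+ BLZ945, 29.2% in tdT- CTL and 35.7% in tdT- BLZ945, with F3 highest in tdT- CTL and F2 highest in both BLZ945 sdCAM groups, yet no sdCAM library fell into the MG range. Fcer1g was 1.67-fold higher in tdT- CTL than MG CTL (log2 fold change 0.74, SE 0.20, adjusted p = 0.00667), 2.09-fold in tdT- BLZ945 (log2 fold change 1.06, SE 0.20, adjusted p = 0.00025) and 2.10-fold in tdT+ BLZ945 (log2 fold change 1.07, SE 0.22, adjusted p = 0.000742). With an exon union of 874 bases, Fcer1g is the shortest of the 7. Tested genes with an exon union under 1000 bases had a median log2 fold change of 0.07 in the CTL comparison (372 genes), 0.51 in the tdT- BLZ945 comparison (372 genes) and 0.57 in the tdT+ BLZ945 comparison (462 genes), so short genes as a whole shifted in the BLZ945 libraries in the direction of Fcer1g. In tdT- BLZ945 and tdT+ BLZ945, F2 also had the highest share of ribosomal protein gene counts (1.31% and 1.49%), whereas in the other 3 groups the library highest in this share was not the one highest in Fcer1g (M2 and F3 in MG CTL, F3 and F2 in MG BLZ945, M2 and F3 in tdT- CTL). Their part in the Fcer1g differences was not tested.

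Fcgr4, an activating receptor gene, went the other way. Its level was 65.0, 89.9, 102, 88.4 and 132 CPM in MG CTL F1, F2, F3, M1 and M2 and 128, 132, 190.0, 132 and 121 CPM in MG BLZ945. It was 50.4, 59.4, 50.8, 51.5 and 49.9 CPM in tdT- CTL, 67.5, 53.3, 76.8, 82.3 and 67.8 CPM in tdT- BLZ945 and 79.9, 108 and 58.2 CPM in tdT+ BLZ945 F2, F3 and M2. Within each treatment the sdCAM libraries lay wholly below the MG libraries, although both BLZ945 sdCAM groups reached into the range of MG CTL. Fcgr4 was 1.81-fold lower in tdT- CTL than in MG CTL (log2 fold change -0.86, SE 0.17, adjusted p = 0.000472), 2.01-fold lower in tdT- BLZ945 than in MG BLZ945 (log2 fold change -1.01, SE 0.17, adjusted p = 7.78e-05) and 1.71-fold lower in tdT+ BLZ945 (log2 fold change -0.78, SE 0.22, adjusted p = 0.00951). The last call rested on tdT+ library M2, the lowest of the 3: without it the log2 fold change was -0.59 (adjusted p = 0.0720).

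Fcgr3, Fcgr1 and Syk, an activating receptor of low affinity, the high-affinity receptor and the kinase, were not called between the cell types. Fcgr3 was at 2894, 3351, 2530.1, 2763 and 2378 CPM in MG CTL and 2645, 3276, 3508, 2677 and 2532 CPM in MG BLZ945, in the order F1, F2, F3, M1 and M2. In sdCAMs it was at 2253, 2402, 2300.2, 2468 and 2386 CPM in tdT- CTL, 2826, 3745, 3338, 2927 and 2722 CPM in tdT- BLZ945 and 3218, 3240.2 and 2955 CPM in tdT+ BLZ945. The ranges of sdCAMs and MG overlapped within each treatment. The 95% intervals of its log2 difference from MG ran from -0.48 to 0.02 for tdT- CTL (log2 fold change -0.23, SE 0.12, adjusted p = 0.185), from -0.15 to 0.35 for tdT- BLZ945 and from -0.18 to 0.38 for tdT+ BLZ945. Fcgr1 lay between 413 to 527 CPM in MG CTL, 486 to 595 in MG BLZ945, 439 to 627 in tdT- CTL, 407 to 603 in tdT- BLZ945 and 345 to 563 in tdT+ BLZ945. All 5 ranges overlapped, and the intervals of its log2 difference from MG lay within -0.42 and 0.43 over the 3 comparisons.

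Syk was low in every group and varied most in tdT+ cells. It was at 64.1, 82.9, 57.2, 62.3 and 51.5 CPM in MG CTL F1, F2, F3, M1 and M2, and at 67.4, 85.5, 78.7, 101 and 76.5 CPM in MG BLZ945. In sdCAMs it was at 46.1, 58.5, 62.1, 58.7 and 76.6 CPM in tdT- CTL, 56.4, 54.3, 48.9, 94.0 and 41.1 CPM in tdT- BLZ945 and 12.1, 55.8 and 79.8 CPM in tdT+ BLZ945 F2, F3 and M2. The tdT+ library F2, with 126 counts, was far below the other two, and M1 was the highest tdT- BLZ945 library. Against MG BLZ945, Syk in tdT- BLZ945 was not called (log2 fold change -0.46, SE 0.20, adjusted p = 0.0790). All 5 same-pool pairs were lower in tdT- cells, and with the replicate block the call was made (adjusted p = 0.0439), as it was without M1 (adjusted p = 0.00377). Syk in tdT+ cells was not called either (log2 fold change -0.73, SE 0.36, adjusted p = 0.140), and the value moved with single libraries. Without the tdT+ library M2 it was -1.27 and called (adjusted p = 0.0221), and without the tdT+ library F2 it was -0.27 (adjusted p = 0.528). No call was made in CTL (log2 fold change -0.07, SE 0.20, adjusted p = 0.861).

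**Figure D2:**
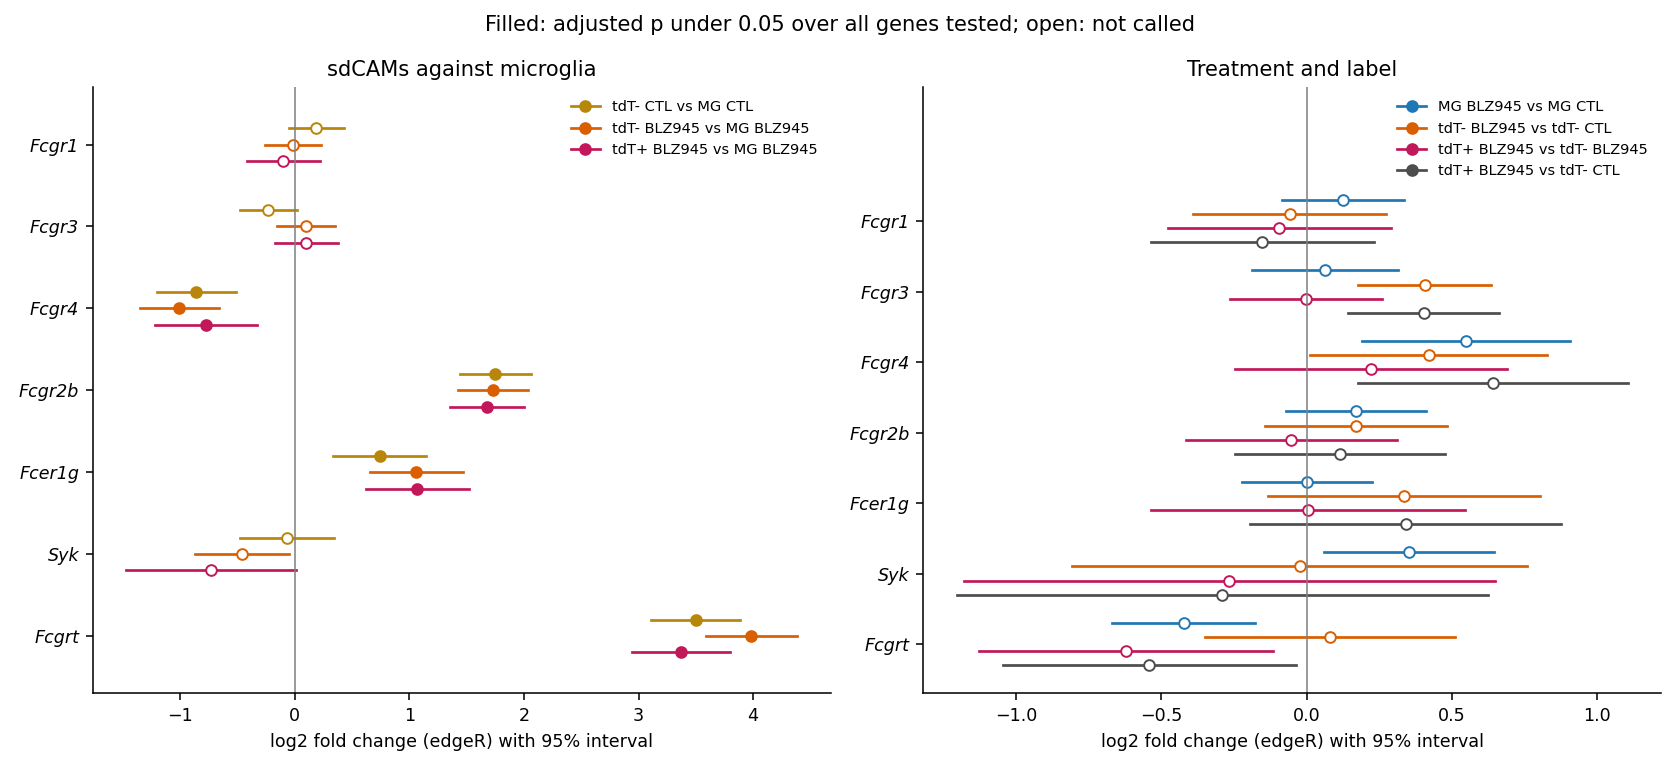
Log2 fold change of each gene (edgeR) with its 95% interval; left, sdCAMs against MG, right, treatment and label comparisons, filled points called and open points not called. In the left panel the points of Fcgrt (3.37 to 3.98), Fcgr2b (1.68 to 1.75), Fcer1g (0.74 to 1.07) and Fcgr4 (-1.01 to -0.78) are filled, and in the right panel none is.

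Libraries from the same animal or pool gave the same picture. Over the 13 pairs of an sdCAM and an MG library, 5 of tdT- CTL, 5 of tdT- BLZ945 and 3 of tdT+ BLZ945, Fcgr2b was higher in sdCAMs by 1.36 to 2.05, Fcer1g by 0.39 to 1.53 and Fcgrt by 2.96 to 4.28 in log2(CPM + 1). Fcgr4 was lower in all 13, with log2 differences from -1.39 to -0.36. Fcgr1 was higher in 4 of 5, 3 of 5 and 2 of 3 pairs, and Fcgr3 in 1 of 5, 4 of 5 and 1 of 3. The 13 pairs are not independent, since MG BLZ945 F2, F3 and M2 each entered with a tdT- and a tdT+ library. For the 4 called members the ranges did not overlap within a treatment, so the direction of every pair followed from that. The pairs give no separate test, and the fit with the replicate block called the same 4 members, and Syk in tdT- BLZ945.

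**Figure D3:**
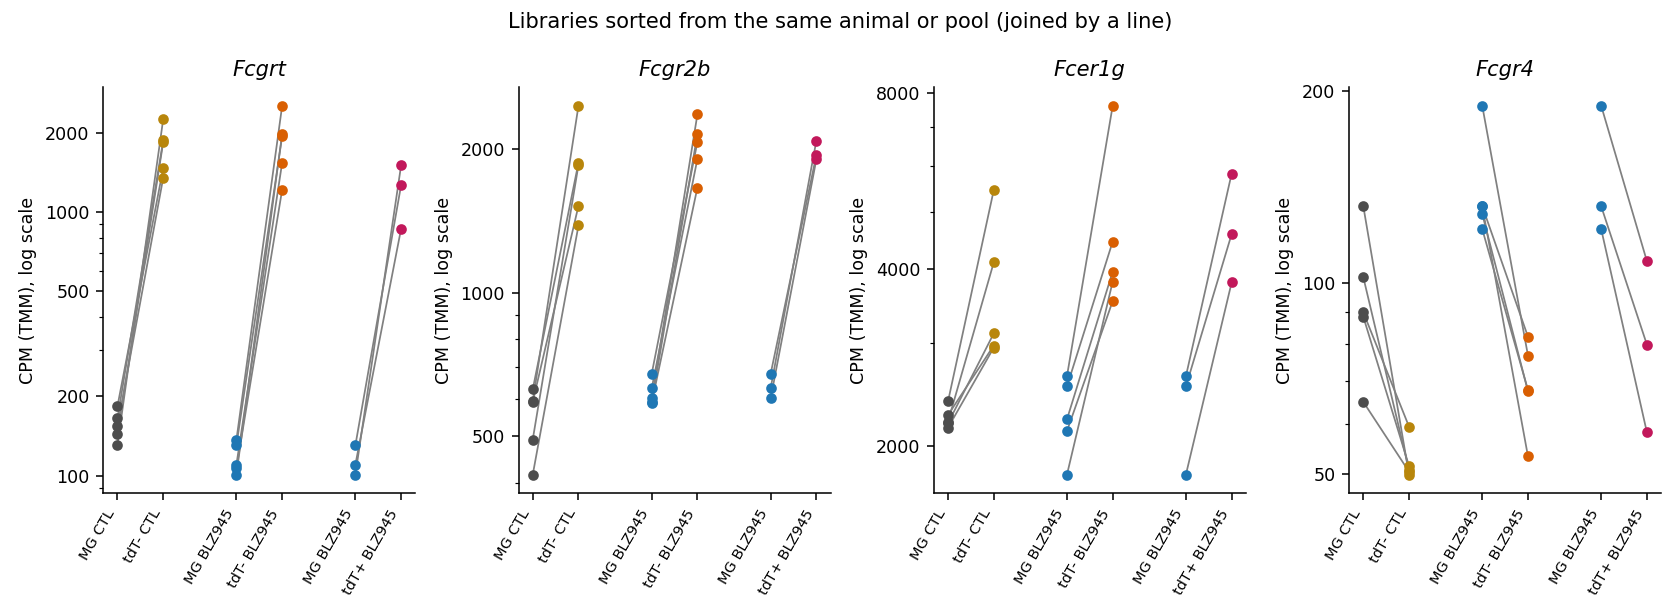
CPM (log axis) of the 4 called genes in MG and sdCAM libraries, lines joining libraries from the same animal or pool, in CTL (tdT-), BLZ945 (tdT-) and BLZ945 (tdT+). All 13 lines rise for Fcgrt, Fcgr2b and Fcer1g, and all 13 fall for Fcgr4.

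The ratio of activating to inhibitory receptor counts was lower in every sdCAM library than in any MG library. The summed counts of Fcgr1, Fcgr3 and Fcgr4 were 5.00 to 8.11 times the Fcgr2b count in MG CTL and 5.03 to 6.54 times in MG BLZ945. In sdCAMs the ratio was 1.24 to 2.07 in tdT- CTL, 1.68 to 1.99 in tdT- BLZ945 and 1.72 to 2.02 in tdT+ BLZ945. The 3 sdCAM groups overlapped, as did the 2 MG groups. Counts are not corrected for length. Per kb of exon union, the group medians of the ratio were 20.4, 18.4, 5.17, 5.87 and 6.21 in the same order of groups. Fcgr3 made up most of the activating sum, and the Fcgr2b and Fcgr3 counts carry the shared-sequence uncertainty given above. The ratio was formed from the members, so it has no test of its own.

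**Figure D4:**
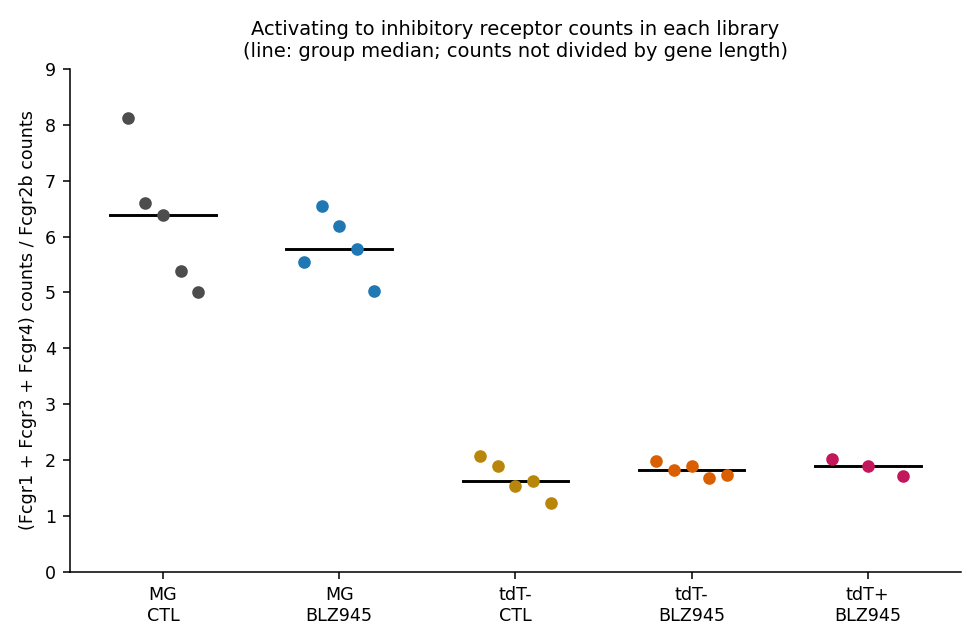
Ratio of the summed Fcgr1, Fcgr3 and Fcgr4 counts to the Fcgr2b count in each library (linear axis from 0, line at the group median). MG libraries lie between 5.00 and 8.11, sdCAM libraries between 1.24 and 2.07.

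Compared per kb of exon union, the level order among the members differed between cell types. In MG CTL it was Fcer1g (2558 ± 104 CPM per kb, mean ± SD, n = 5), Fcgr3 (1603 ± 216), Fcgr1 (183 ± 18.2), Fcgr2b (94.0 ± 15.1), Fcgr4 (76.0 ± 19.5), Fcgrt (74.1 ± 9.59) and Syk (6.79 ± 1.26). In tdT- CTL, Fcgrt (834 ± 170.3 CPM per kb) and then Fcgr2b (314 ± 72.3) came next after Fcer1g (4253 ± 1242) and Fcgr3 (1361 ± 49.3). Fcgr2b, Fcgr4 and Fcgrt overlapped within their SD in MG CTL, whereas in tdT- CTL Fcgr4 (41.7 ± 3.14) was far below Fcgrt. Syk was lowest in both, at 6.45 ± 1.17 CPM per kb in tdT- CTL.

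BLZ945 treatment 8 weeks earlier left no member called in microglia. MG BLZ945 and MG CTL differed in 46 of 11264 genes (0.408%), and the ranges of the groups were separate for 3.03% of genes and for none of the 7. Among the members, Fcgr4 averaged 141 ± 27.8 CPM against 95.5 ± 24.4 CPM (mean ± SD, n = 5 each, log2 fold change 0.55, SE 0.17, adjusted p = 0.175). Fcgrt averaged 117 ± 15.6 CPM against 156 ± 20.2 CPM (log2 fold change -0.42, SE 0.12, adjusted p = 0.130) and Syk 81.7 ± 12.3 CPM against 63.6 ± 11.8 CPM (log2 fold change 0.35, SE 0.14, adjusted p = 0.291). For each of these 3 the unadjusted p was under 0.05 (0.00501, 0.00220 and 0.0213), as it was for 1492 genes in all, and the MG ranges overlapped in every case. The calls depended on the tool. DESeq2 called Fcgrt (adjusted p = 0.0386) among 237 genes, and edgeR without a filter on low counts called Fcgr4 (adjusted p = 0.0422) among 193. Without MG CTL replicate M2, the highest of its group for Fcgr4, edgeR called Fcgr4 (adjusted p = 0.0395). Fcgr1, Fcgr2b, Fcgr3 and Fcer1g differed by 0.00 to 0.17 on the log2 scale, with 95% intervals between -0.22 and 0.41. Cd79b, from the B and plasma cell list, was at 28.8 to 48.4 CPM in MG CTL and 3.01 to 9.64 CPM in MG BLZ945, and the list summed to a median of 375 and 234 CPM (at most 516 and 300.2 CPM), with overlapping ranges. Pecam1, an endothelial gene, was at 11.5 to 17.9 CPM in MG CTL and 1.28 to 9.13 CPM in MG BLZ945. Ribosomal protein genes took 0.965% to 1.17% of counts in MG CTL and 0.713% to 0.944% in MG BLZ945, and genes with an exon union under 1000 bases had a median log2 fold change of -0.23 (316 genes). The part of these in the member differences was not tested.

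In sdCAMs, treatment and label gave no called member either. Between tdT- BLZ945 and tdT- CTL edgeR called 0 of 13076 genes (0%), with 697 genes at an unadjusted p under 0.05 and 56 called by DESeq2. Fcgr3 averaged 3112 ± 424 CPM in tdT- BLZ945 and 2362 ± 85.5 CPM in tdT- CTL (n = 5 each). Every tdT- BLZ945 library was above every tdT- CTL library for Fcgr3, the only member of the 7 with separate ranges, against 1.84% of all genes. Its difference was 1.32-fold (log2 fold change 0.41, SE 0.11, adjusted p = 0.491 by edgeR), and DESeq2 called it (adjusted p = 0.0176). Fcgr4 averaged 69.6 ± 11.01 CPM against 52.4 ± 3.95 CPM (log2 fold change 0.42, SE 0.19, adjusted p = 0.907). The other 5 members had log2 differences between -0.06 and 0.34. The highest of these, that of Fcer1g, was 0.09 without tdT- BLZ945 F2 and 0.52 without tdT- CTL F3. Cd79b was at 24.6 to 38.1 CPM in tdT- CTL, 0 to 6.27 CPM in tdT- BLZ945 and 11.3 to 50.3 CPM in tdT+ BLZ945. Cd209a, from the dendritic cell list, was at 206 to 754, 19.1 to 140 and 11.9 to 69.7 CPM in these groups. Other genes of this list did not all go the same way. In the same order, Siglech had medians of 202, 405 and 388 CPM and Flt3 of 0.620, 4.76 and 4.11 CPM, with overlapping ranges. The median of Zbtb46 was lower in both BLZ945 groups. The list summed to medians of 668, 596 and 464 CPM, also with overlapping ranges. The part of these markers in the member differences was not tested.

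Within BLZ945-treated mice, tdT+ and tdT- sdCAMs were compared over 3 and 5 libraries. edgeR called 27 of 13076 genes (0.206%), and 6 with the replicate block, none of them a member, and no member had separate ranges, against 3.41% of all genes. Fcgrt was at 1209.5 ± 322 CPM in tdT+ and 1839 ± 496 CPM in tdT- libraries (log2 fold change -0.62, SE 0.24, adjusted p = 0.617), and was lower in the tdT+ library of all 3 same-pool pairs, with differences in log2(CPM + 1) from -0.83 to -0.40. Fcgr3 was at 3138 ± 159 CPM and 3112 ± 424 CPM, with a 95% interval of the log2 difference from -0.27 to 0.26. Fcgr2b and Fcer1g likewise had estimates near 0 (-0.05 and 0.01) with intervals from -0.42 to 0.31 and from -0.54 to 0.55, so the data do not show that the 2 sdCAM populations were alike. Cd163, a marker of sdCAMs, was at 322 to 375 CPM in tdT+ and 814 to 2015 CPM in tdT- BLZ945 libraries. Lyve1, another sdCAM marker, was at 1156 to 1790 and 2141 to 3371 CPM, and Aqp4, a neural marker, at 4.31 to 8.51 and 0 to 0.809 CPM. Whether these bear on Fcgrt was not tested.

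Against tdT- CTL, tdT+ BLZ945 sdCAMs differed in 37 of 13076 genes (0.283%), again with no member. The groups were separate for Fcgr3, as for 8.26% of all genes. Fcgr3 averaged 3138 ± 159 CPM (n = 3) against 2362 ± 85.5 CPM (n = 5, log2 fold change 0.40, SE 0.12, adjusted p = 0.355), and DESeq2 called it (adjusted p = 0.0232). Fcgr4 averaged 82.1 ± 25.1 CPM against 52.4 ± 3.95 CPM (log2 fold change 0.64, SE 0.22, adjusted p = 0.486) and Fcgrt 1209.5 ± 322 CPM against 1754 ± 358 CPM (log2 fold change -0.54, SE 0.24, adjusted p = 0.624). Without tdT+ F3 the log2 fold changes were 0.39 for Fcgr4 and -0.35 for Fcgrt, and without tdT+ M2 they were 0.83 and -0.73. This comparison shares its CTL libraries with the tdT- one and joins treatment and label, which cannot be told apart in it.

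The effect of BLZ945 was also compared between tdT- sdCAMs and microglia, as an interaction. Of 12697 genes 5 were called (0.0394%) and no member was among them. The largest estimates were those of Fcgrt (log2 fold change 0.48, SE 0.24, adjusted p = 0.603), Syk (log2 fold change -0.39, SE 0.28, adjusted p = 0.743) and Fcgr3 (log2 fold change 0.33, SE 0.17, adjusted p = 0.616). For Fcgrt the estimate combines a lower mean in MG BLZ945 than in MG CTL with a similar mean in both tdT- groups.

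Among genes downstream of the receptors, more were called lower than higher in sdCAMs. Of 23 kinases and adaptors that act after the receptors, such as Lyn and Plcg2, the calls against MG were 2 higher and 11 lower, 3 higher and 15 lower, 1 higher and 13 lower for tdT- CTL, tdT- BLZ945 and tdT+ BLZ945 in turn. These are 8.70, 13.0 and 4.35% called higher and 47.8, 65.2 and 56.5% called lower, against 15.3, 18.3 and 14.6% higher and 10.3, 14.1 and 10.6% lower of all genes tested. Their median log2 fold changes were -0.59, -0.82 and -0.92, against -0.01, -0.02 and -0.01 for all genes. Lat2, an adaptor of ITAM signalling, was lower in tdT- CTL than in MG CTL (23.6 ± 5.99 against 159 ± 17.0 CPM, adjusted p = 5.3e-11), and Src, a kinase that phosphorylates such motifs, in tdT- BLZ945 (1.71 ± 1.27 against 16.3 ± 4.48 CPM, adjusted p = 0.00018). Fgr, another kinase of the Src family, was at 0 counts in the 3 tdT+ libraries, against 14.4 ± 3.76 CPM in MG BLZ945 (adjusted p = 0.00182). Fgr was also called lower in tdT- CTL than in MG CTL (0.149 ± 0.255 against 8.59 ± 6.06 CPM, adjusted p = 0.00174). Src was also called lower in tdT+ BLZ945 (1.81 ± 1.76 against 16.3 ± 4.48 CPM, adjusted p = 0.00821). Vav3, a guanine nucleotide exchange factor, was higher in all 3 sdCAM groups (67.9 ± 13.7 against 1.66 ± 1.46 CPM, adjusted p = 8.66e-06 in CTL).

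Of 12 tested receptors and adaptors that share the ITAM route, the calls in the same comparisons were 4 higher and 3 lower, 6 higher and 3 lower, 5 higher and 3 lower. These are 33.3, 50 and 41.7% called higher and 25.0, 25.0 and 25.0% called lower, beside the 15.3, 18.3 and 14.6% higher and 10.3, 14.1 and 10.6% lower of all genes, and the median log2 fold changes were 1.16, 2.15 and 1.67. Clec4n, the lectin receptor Dectin-2 that signals through the FcRγ chain, was at 937 ± 207 against 2.29 ± 1.62 CPM, adjusted p = 1.94e-10, in tdT- CTL against MG CTL, and Clec4d, another lectin receptor of this kind, at 116 ± 59.0 against 0.834 ± 0.729 CPM, adjusted p = 4.61e-10. Trem2, a lipid receptor that pairs with another ITAM adaptor, was lower (578 ± 59.8 against 1674 ± 202 CPM, adjusted p = 2.97e-08), as was Itgam, the integrin chain of complement receptor CR3 (139 ± 19.0 against 297 ± 45.6 CPM, adjusted p = 5.13e-06). Sirpb1a was at 0 counts in all MG BLZ945 libraries and at 3.15 ± 1.62 CPM in tdT+ BLZ945 (adjusted p = 0.00414). It was also called higher in tdT- BLZ945 (3.08 ± 4.23 CPM, adjusted p = 0.00446), where the range overlapped that of MG. Its highest counts were 52 in tdT+ and 94 in tdT- BLZ945 libraries, so its level was low.

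Of 14 genes that restrain Fc receptor signalling, the calls were 3 higher and 3 lower, 3 higher and 4 lower, 2 higher and 3 lower. The shares of 21.4, 21.4 and 14.3% called higher and 21.4, 28.6 and 21.4% called lower lay beside 15.3, 18.3 and 14.6% higher and 10.3, 14.1 and 10.6% lower of all genes, with median log2 fold changes of 0.00, -0.22 and -0.15. The shares called higher were near this background, and those called lower rest on 3 or 4 genes. Inpp5d, which encodes the phosphatase recruited by the Fcgr2b receptor, was lower in tdT- sdCAMs of both treatments, while Fcgr2b was higher. Inpp5d was at 166 ± 27.7 against 367 ± 65.7 CPM in CTL (adjusted p = 5.58e-05). In BLZ945 it was at 143 ± 44.2 against 423 ± 25.5 CPM (adjusted p = 1.11e-06). The outcome for Inpp5d in tdT+ BLZ945 is not given, since only the largest falls were named there. Dok2, an adaptor that dampens kinase signalling, was higher (104 ± 24.2 against 11.7 ± 5.34 CPM, adjusted p = 3.17e-08 in CTL), and Pag1, which anchors the kinase inhibitor Csk, lower (17.9 ± 4.82 against 121 ± 22.9 CPM, adjusted p = 8.67e-10). Sirpa, the receptor for the CD47 signal against phagocytosis, was lower in tdT+ BLZ945 (488 ± 201 against 1491 ± 79.9 CPM, adjusted p = 1.59e-06).

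Of 21 tested genes of the phagocytic cup and its actin, the calls were 3 higher and 5 lower, 3 higher and 7 lower, 2 higher and 6 lower. These are 14.3, 14.3 and 9.52% called higher and 23.8, 33.3 and 28.6% called lower, and the median log2 fold changes were 0.14, -0.09 and -0.17. Of all genes, 15.3, 18.3 and 14.6% were higher and 10.3, 14.1 and 10.6% lower, so the shares called higher were at or below the background. Arpc1b, a subunit of the ARP2/3 complex that branches actin, was higher (1167 ± 185 against 749 ± 25.2 CPM, adjusted p = 6.34e-05 in CTL), and Coro1a, an actin-binding protein of leukocytes, lower (217 ± 10.9 against 939.7 ± 77.9 CPM, adjusted p = 3.55e-12). Elmo1, part of a Rac activator, was lower too (81.9 ± 21.7 against 249 ± 39.7 CPM, adjusted p = 7.76e-06). Of 20 transcription factors and cytokine receptors known to act on Fc receptor genes, the calls were 5 higher and 6 lower, 0 higher and 7 lower, 0 higher and 7 lower. These are 25.0, 0 and 0% called higher and 30.0, 35.0 and 35.0% called lower on the same background, with median log2 fold changes of 0.02, -0.29 and -0.20. Tgfbr1, a TGF-β receptor chain, was lower in each (104 ± 49.9 against 972 ± 203 CPM, adjusted p = 3.14e-09 in CTL). Il10ra, the interleukin-10 receptor, was lower in both tdT- comparisons (209 ± 46.5 against 443 ± 73.5 CPM, adjusted p = 0.000117 in CTL). For tdT+ BLZ945 only the largest falls of the list were named, so the outcome for Il10ra there is not given. Stat2, of the type I interferon route, was higher in CTL (63.6 ± 14.3 against 26.5 ± 9.20 CPM, adjusted p = 0.000852).

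**Figure D5:**
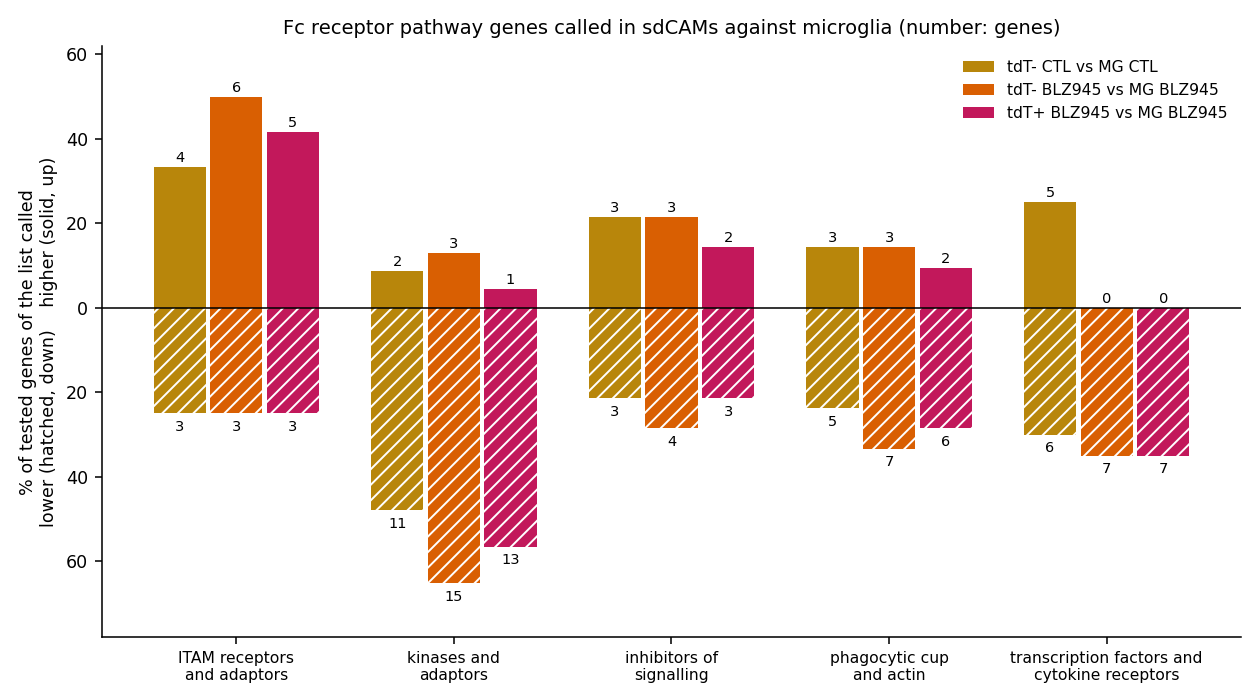
Share of the tested genes of each pathway list called higher (solid, up) or lower (hatched, down) in sdCAMs against MG, in % on a linear axis from 0, with the number of genes beside each bar. Among kinases and adaptors, 11, 15 and 13 of 23 genes are lower and 2, 3 and 1 higher.

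Of the other Fc receptor genes only B2m, Trim21 and Fcrl1 passed the filter. Trim21, a receptor for antibody in the cytosol, was higher in tdT- CTL (55.4 ± 15.6 against 27.8 ± 3.54 CPM, adjusted p = 0.000869), with overlapping ranges. It was not called against MG BLZ945 in tdT- or tdT+ cells. Fcrl1, an Fc receptor-like gene known from B cells, was lower in all 3 sdCAM groups (4.87 ± 1.55 against 50.5 ± 11.4 CPM, adjusted p = 0.000307 in CTL). Against MG CTL, tdT- CTL also held less of the B and plasma cell list (median sum 230.3 against 375 CPM, with overlapping ranges). In BLZ945-treated mice the median sums were 234 CPM in MG, 199 CPM in tdT- and 289 CPM in tdT+ libraries. The part of this list in the Fcrl1 differences was not tested. Fcer1a, the IgE-binding chain that shares FcRγ, was at 0 counts in all 23 libraries. In the treatment and label comparisons none of these pathway genes was called except Lat2, which was higher in tdT+ BLZ945 than in tdT- CTL (68.6 ± 6.63 against 23.6 ± 5.99 CPM, adjusted p = 0.0144).

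The genes whose level across the 23 libraries was most like that of a member were found by Pearson's r of log2(CPM + 1) among 8799 other genes. For Fcgrt they were Clec10a (0.990), Fcna (0.989) and Aldh2 (0.985), and for Fcgr2b Ifitm2 (0.980), Clec4n (0.978) and Wfdc17 (0.977). For Fcer1g they were Cox6b1 (0.985), Cox6a1 (0.977) and Sh3bgrl3 (0.977), and for Fcgr4 Smim3 (0.875), Tmed5 (0.873) and Yrdc (0.860). The closest gene was Tns1 for Fcgr3 (0.789), Snapc2 for Fcgr1 (0.729) and Slc35c1 for Syk (0.884). Among the members, Fcgr2b and Fcgrt had an r of 0.963, and Fcgr4 and Fcgrt one of -0.801. The libraries form 2 cell types and several come from the same animals, so each r also holds the difference between sdCAMs and microglia and is a description only.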

How the data were processed

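The authors sorted cells, made SMART-Seq libraries and deposited raw counts per gene for 23 libraries. Per the labels, reads were handled with bcl2fastq 2.20, STAR 2.7.11a and featureCounts 2.0.6, and the authors tested with DESeq2 1.46.0. The methods leave the build open (mm10 or GRCm39), and the handling of multimapping reads and strand is not given in the sources used here. From these counts, edgeR 4.0.16 (R 4.3.3) was run with TMM factors, filterByExpr and the quasi-likelihood test, with Benjamini-Hochberg adjustment over all genes tested. MG comparisons used 10 libraries, sdCAM comparisons 13, tdT- against MG and the interaction 20, and tdT+ against MG 23. CPM were scaled by TMM, and CPM per kb used the exon union of the annotation. Total counts limit counting error only; the biological coefficient of variation was 0.253 in MG and 0.704 in sdCAM libraries. Alternatives were DESeq2 1.42.0, RLE factors, no filter or the study's filter on low counts, 1 fit of all 23 libraries, the replicate block, leaving out each library and, chosen after seeing the data, ratios per kb. The fit was tested on simulated data.

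The titles give libraries of the same animal or pool the same replicate label. Same-label deviations from the group means correlated by 0.07 to 0.18 for tdT- CTL and MG CTL and 0.03 to 0.17 for tdT- BLZ945 and MG BLZ945. They correlated by 0.10 to 0.16 for tdT+ and MG BLZ945 and 0.04 to 0.09 for tdT+ and tdT- BLZ945. Same-label libraries of different animals gave 0.01 to 0.19 for MG BLZ945 and MG CTL. They gave -0.08 to 0.04 for tdT- BLZ945 and tdT- CTL, and -0.05 to 0.02 for tdT+ BLZ945 and tdT- CTL. Same-animal and different-animal values overlapped, so these correlations alone do not show an animal effect. No 2 libraries of a group agreed within sampling noise (lowest chi-square per gene 15.8). The members and gene lists were chosen with earlier results of these data known. Named were the 7 members, at most 2 called genes per direction for each list and comparison, taken by size of change, and the 3 genes most similar to each member. Of the listed symbols, Trbc1, Fcrls and Fyb had no row.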

Additional observations from a re-analysis of the deposited data

Results flagged for a closer look

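Among 36 groups of values tested for a single library far from the rest (groups of 5 libraries, for the log2(CPM + 1) of the members and 2 count ratios, the tdT+ group of 3 not being tested), 2 were found. Chance alone gives about 1 in 20 groups. Fcgr4 in MG BLZ945 replicate F3 was at 190.0 CPM, with the other 4 libraries at 121 to 132 CPM. Fcgr4 in tdT- CTL replicate F2 was at 59.4 CPM, with the others at 49.9 to 51.5 CPM. In both cases the gap to the nearest library, on the log2 scale, was over 0.71 of the whole range of the group (0.814 and 0.820). Without MG BLZ945 F3 the log2 fold change of Fcgr4 between MG BLZ945 and MG CTL was 0.41 (adjusted p = 0.317 by edgeR), and without tdT- CTL F2 the one between tdT- CTL and MG CTL was -0.91 (adjusted p = 0.0008 by edgeR). No difference between the effects of BLZ945 in tdT- sdCAMs and in microglia passed the test for any member.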

How the results depend on the processing

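The counts of calls in the treatment, reporter and interaction comparisons varied with the processing, and the cause was not tested. For MG BLZ945 against MG CTL (46 genes by edgeR), DESeq2 called 237, edgeR without a filter 193, the fit of all 23 libraries 12 and the replicate block 89. The members called were then 1 with DESeq2 (Fcgrt) and 1 without a filter (Fcgr4). For tdT- BLZ945 against tdT- CTL (0 genes), DESeq2 called 56, with 1 member (Fcgr3), and the fit of all 23 libraries 29. For tdT+ against tdT- BLZ945 (27 genes), DESeq2 called 133, the fit of all 23 libraries 82 and the replicate block 6. For tdT+ BLZ945 against tdT- CTL (37 genes), DESeq2 called 181, with 1 member (Fcgr3), no filter 61 and the fit of all 23 libraries 121. For the interaction (5 genes), DESeq2 called 94, no filter 9, the study's filter 2, the fit of all 23 libraries 1 and the replicate block 1. The replicate block made the call of Syk in tdT- BLZ945 against MG BLZ945 and changed no other call of a member. Same-numbered animals of the 2 treatments are different animals, so there the block pairs only labels: 2 of 5 libraries were closest to their own label in MG, 2 of 5 in tdT- sdCAMs and 1 of 3 for tdT+ against tdT- CTL.

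Leaving out 1 library at a time gave 22 to 102 calls in MG (102 without MG CTL M2, 94 without MG BLZ945 F2, 22 without MG CTL M1 or F2), 16 to 27 between tdT+ and tdT- BLZ945 (16 without tdT+ F2), 21 to 44 against tdT- CTL (21 without tdT+ F2) and 0 to 36 for the interaction (36 without tdT- BLZ945 F1, 0 without MG CTL M1 or F2). Members called in MG were 0 to 1. Some directions turned, all of values that were not called. With the replicate block Fcer1g was at -0.010 in MG and -0.129 between tdT+ and tdT- BLZ945. Fcgr3 between tdT+ and tdT- BLZ945 was at 0.008 with DESeq2 and with RLE factors, 0.007 without a filter, 0.001 with the study's filter and 0.012 in the fit of all 23 libraries. Fcgr1 in tdT- BLZ945 against MG BLZ945 was at 0.029, and Fcgr2b in the interaction at 0.015, with DESeq2 and with RLE factors. Over the fits without 1 library, log2 fold changes ran as follows. In MG they were Fcgr3 -0.018 to 0.133 and Fcer1g -0.059 to 0.074. For tdT- BLZ945 against tdT- CTL they were Syk -0.260 to 0.078, Fcgr1 -0.125 to 0.014 and Fcgrt -0.064 to 0.197. For tdT+ against tdT- BLZ945 they were Fcer1g -0.151 to 0.257, Fcgr2b -0.118 to 0.013, Fcgr3 -0.042 to 0.080, Syk -0.800 to 0.203, Fcgr1 -0.202 to 0.116 and Fcgr4 -0.018 to 0.428. For tdT+ BLZ945 against tdT- CTL they were Syk -0.838 to 0.166 and Fcgr1 -0.275 to 0.043. Against MG they were Syk -0.170 to 0.043 in CTL, Fcgr1 -0.082 to 0.056 in tdT- BLZ945 and Fcgr1 -0.223 to 0.092 in tdT+ BLZ945, and in the interaction Fcgr2b -0.092 to 0.115. The 4 members called between sdCAMs and MG were called in every fit, except Fcgr4 in tdT+ cells without tdT+ M2.

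Limits are the 3 tdT+ libraries, the pooled BLZ945 animals with 1 animal number in 2 labels, the sequence that Fcgr2b and Fcgr3 share, and sdCAM libraries that vary more than MG libraries. RLE factors moved no member by more than 0.055 on the log2 scale. Depth was similar in all libraries. No group without stroke was analysed here.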

Other observations

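After the mean of its own group was taken from each library, the members varied with other genes than before. Over 23 libraries and 8799 genes, Fcgr1 and Fcgrt then moved together (r = 0.745), and Fcgr1 ranked at place 9 among the genes most similar to Fcgrt and Fcgrt at place 4 among those of Fcgr1. Fcgr2b and Fcgrt had an r of 0.535, and Fcgr2b and Fcgr1 one of 0.416. Fcer1g varied most like Gng5 (0.974), Rpl37 (0.969) and Ubl5 (0.962), which encode a G protein subunit, a ribosomal protein and a ubiquitin-like protein, while its r with Fcgr3 was 0.478. Fcgr3 varied most like Gpx4 (0.751), Drap1 (0.712) and Maf1 (0.711), Fcgr4 like Tfam (0.743), and Syk like Hectd3 (0.885). Libraries of the same animal or pool share part of this variation, so these are descriptions of the libraries and not tests.

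The spread within groups also differed between members. The coefficient of variation of Fcgr3 over libraries was 3.62% in tdT- CTL, 5.05% in tdT+ BLZ945, 13.5% in MG CTL, 13.6% in tdT- BLZ945 and 14.9% in MG BLZ945. For Syk it was 15.1% to 34.8% in the 4 other groups and 69.8% in tdT+ BLZ945, where library F2 was far below the others.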
